A study of Saccharomyces cerevisiae with 23 samples.

Results

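Lines 2, 15 and 16 are 3 of 23 mutation accumulation lines of Saccharomyces cerevisiae (budding yeast), named here by the number after the hyphen in their labels. They were selected on the deposited log ratios themselves, by a low SD of their columns over all 6334 features, so that few of their transcripts stood far from the common reference. The other 20 lines form the comparison group. In a mutation accumulation experiment, lines are propagated apart from each other through repeated narrow bottlenecks, so that spontaneous mutations collect with little selection. Lines can therefore come to differ in transcript levels, and a line whose profile stays near the middle shows which differences from a reference are left when the large responses are small.

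Each line was grown unsynchronized in YPD, a rich glucose medium, at 30 °C to log phase at an OD600 of about 1.0, and its cDNA was hybridized against cDNA of strain YPS183, harvested at an OD600 of 1.1. Every line carried the Alexa Fluor 555 dye and every reference the Alexa Fluor 647 dye, with no dye swap. The labels name no treatment, allele or genotype that sets one line apart from another, and no column of the ancestor was used here. The table gave 1 column per line, so the value of a single line has no replicate error, and what is common to all columns cannot be told apart from the strain, culture or dye of the reference. Values are read as log2 ratios. The sources used here do not give the base or which strain is the numerator, so the text says "positive" or "negative" as deposited and names no strain as the higher one.

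The columns were centred near 0 (medians from -0.018 to 0.018) but had different spreads, from 0.245 to 0.583. Of 253 pairs of columns, 28 had a Pearson r under -0.3 over all features, and the lowest was -0.64. No direction between line and reference is settled by these data, and turning the sign of all columns would exchange positive and negative throughout. Features were named through the R64 annotation, which matched 5817 of them. The labels name no batch.

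The SD of line 15 was 0.246, that of line 2 was 0.249 and that of line 16 was 0.272. These were the 3rd, 4th and 5th lowest of 23. Lines 49 (0.245) and 24 (0.246) were lower still, so low spread was not a property of the 3 chosen lines alone. Just above them came line 50 at 0.287 and line 27 at 0.288. By the scaled median absolute deviation, which large values hardly move, line 2 ranked 1st at 0.180, line 15 ranked 2nd at 0.187 and line 16 ranked 6th at 0.235. Line 2 therefore combined the narrowest bulk of features with a few large departures, and line 16 had a wider bulk with few large ones.

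**Figure D1:**
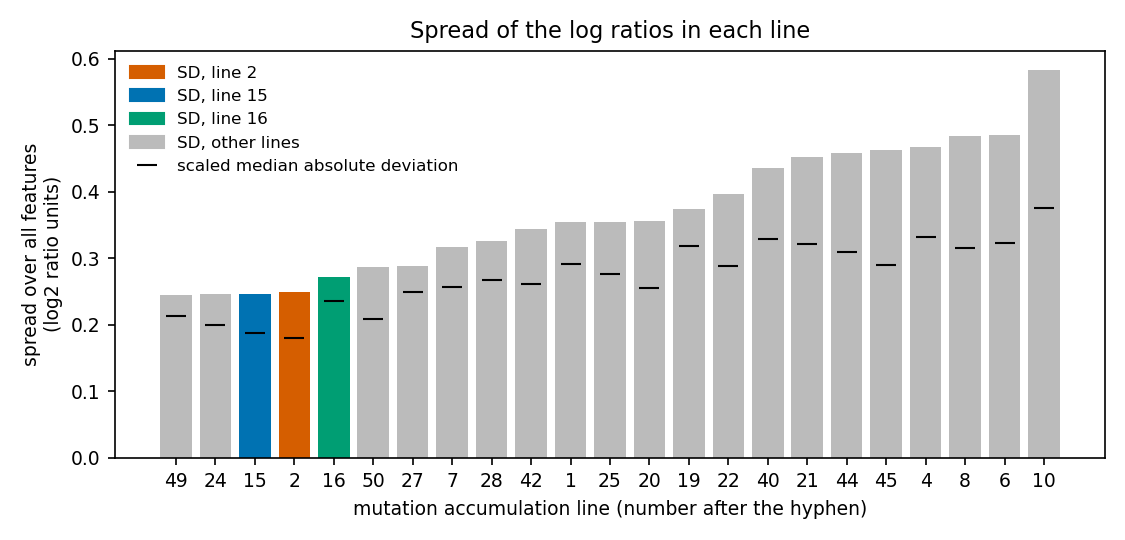
Bars give the SD of the log2 ratios over 6334 features for each of 23 lines, in rising order, and black ticks give the scaled median absolute deviation. Lines 15, 2 and 16 stand 3rd, 4th and 5th by SD, behind lines 49 and 24.

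Counts of large values show the same contrast. An absolute log2 ratio of 1 or more was reached by 45 features (0.710%) in line 2, by 26 (0.410%) in line 15 and by 22 (0.347%) in line 16, while the other lines had from 16 to 504 with a median of 117.5. At 0.5 or more the order turned round, with 291 features in line 2, 340 in line 15 and 451 in line 16, against 302 to 1537 in the others. The lowest value of line 2 was that of DSF1, a homolog of mannitol dehydrogenase, at -2.85, and the highest was that of FAA4, a long-chain fatty acyl-CoA synthetase, at 2.30. Line 15 ran from -2.15 for THI4, which makes the thiazole moiety of thiamine, to 1.61 for FBP1, the fructose-1,6-bisphosphatase of gluconeogenesis. Line 16 ran from -1.47 for the ribosomal protein gene RPS3 to 2.06 for the hexose transporter gene HXT4.

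The features that varied most elsewhere had few large values in these lines, as in several others. Among the 50 features with the highest SD in the other 20 lines (SDs from 1.07 to 1.58, against a median of 0.264 over all features), 8 reached an absolute value of 1 in line 2, 4 in line 15 and 1 in line 16. In the other lines from 1 to 44 of the 50 did so, with 1 each in lines 24 and 49, 4 in line 7, 5 in line 1, 6 in line 42 and 8 each in lines 27 and 28. The median over the 50 was -0.43 in line 2, -0.44 in line 15 and 0.24 in line 16, so lines 2 and 15 were not centred on the reference for these features. These counts follow from the low SD that chose the lines and are given as a description.

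In the 3 lines, 2520 features (39.8%) had the same sign in each, 1136 of them positive and 1384 negative. Large values were mostly not shared: 868 features reached 0.5 in absolute value in at least 1 of the 3 lines, 679 of them in 1 line alone, 164 in 2 lines and 25 in all 3. Of those 25, 7 had mixed signs. That left 18 features (0.284% of 6334) on one side of the reference by 0.5 or more in all 3 lines, 5 positive (0.0789%) and 13 negative (0.205%). The count was 96 with columns scaled to a common median absolute deviation and 108 after quantile normalization, and it was 88 without line 2, 30 without line 15 and 89 without line 16, where fewer lines had to meet the threshold. Only YJL007C reached 1 in each.

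The 13 negative features were led by RGI1, a gene of respiratory growth, followed by genes of iron uptake, glucose phosphorylation and methionine uptake, and 6 of them were ribosomal protein genes. HXT4 was the largest named gene among the 5 positive ones. As background for what follows, budding yeast in rich glucose ferments, represses respiration and gluconeogenesis, and spends a large part of its transcription on ribosomes. The lines and the comparison group share one reference RNA, so a departure in the same direction in both may come from that RNA. The mean of the other 20 lines was tested against 0 with limma (p-values adjusted by Benjamini-Hochberg across the table), and 372 features passed an adjusted p of 0.05 (5.87%, with 155 positive at 2.45% and 217 negative at 3.43%). Of the 18 features, 6 were among them, and since both sets of lines were read against the same RNA this is no independent support.

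**Figure D2:**
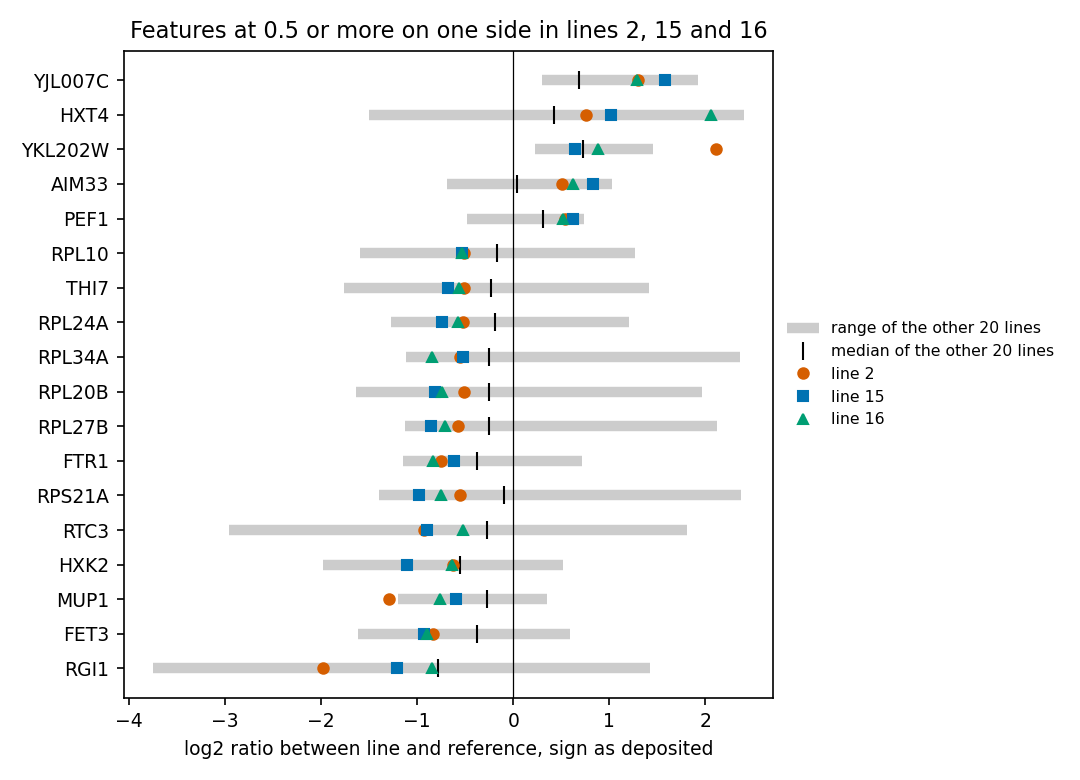
Each row is one of the 18 features at 0.5 or more on one side in lines 2, 15 and 16, with the log2 ratio of each line as a coloured symbol, the range of the other 20 lines as a grey bar and their median as a tick. For all 18 the 3 symbols lie on one side of 0, and apart from line 2 for YKL202W and MUP1 every symbol lies within the grey bar.

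YJL007C, an open reading frame with no gene symbol in the annotation, had log2 ratios of 1.30 in line 2, 1.58 in line 15 and 1.29 in line 16. In the other lines it ran from 0.30 through a median of 0.68 to 1.93, with a mean of 0.86 ± 0.10 (SE, n = 20; limma adjusted p = 3.8e-05). All 23 lines were positive, so the sign was not particular to lines 2, 15 and 16. YKL202W, a feature that matched no gene, was at 2.11, 0.64 and 0.88 in lines 2, 15 and 16, and at 0.23 to 1.46 in the others (mean 0.81 ± 0.08, SE, n = 20; limma adjusted p = 6.5e-06). Here too all 23 lines were positive, and line 2 lay above every other line.

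HXT4, a transporter of hexoses induced by low glucose, was at 0.75 in line 2, 1.01 in line 15 and 2.06 in line 16. The other lines ran from -1.50 to 2.40 with a median of 0.42, 13 of 20 were positive, and their mean of 0.41 ± 0.18 (SE, n = 20) had a limma adjusted p of 0.212. The 3 lines lay in the upper part of a range that spanned both sides. PEF1, which codes for a calcium-binding protein with penta-EF hands, was almost level over the 3 lines at 0.54, 0.62 and 0.52, against -0.48 to 0.74 and a mean of 0.27 ± 0.06 in the others (SE, n = 20; limma adjusted p = 0.011). AIM33 was at 0.51, 0.83 and 0.63, while the mean of the other lines was 0.09 ± 0.10 (SE, n = 20; limma adjusted p = 0.670). It was one of the last to meet the threshold of 0.5.

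Iron uptake contributed a pair of genes whose products work together at the cell surface. FET3, the multicopper ferroxidase, was at -0.83, -0.93 and -0.90 in lines 2, 15 and 16, and FTR1, the permease that takes the oxidized iron in, was at -0.75, -0.62 and -0.83. In the other lines FET3 ran from -1.61 through a median of -0.38 to 0.59 (mean -0.36 ± 0.13, SE, n = 20; limma adjusted p = 0.104). FTR1 ran from -1.14 through -0.38 to 0.72 (mean -0.34 ± 0.12, SE, n = 20; limma adjusted p = 0.0887). For both genes 14 of the other 20 lines were negative as well, and their means did not pass the test. The rest of the iron list did not share the shift: over its 31 measured members the medians were -0.03, 0.12 and 0.00 in the 3 lines, and no other member reached 0.5 on one side in all 3. FET4, a low-affinity iron transporter, was at 1.36 in line 2, 0.25 in line 15 and 0.11 in line 16.

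RGI1, a gene named for its induction in respiratory growth, was at -1.98, -1.21 and -0.84. It is among the most variable genes of the other lines, with values from -3.75 to 1.42 and a mean of -0.96 ± 0.27 (SE, n = 20; limma adjusted p = 0.0404). Without lines 24 and 49 that adjusted p was 0.0739. RTC3 was at -0.93, -0.90 and -0.52, inside a range of the other lines from -2.96 to 1.81. HXK2, the hexokinase that phosphorylates most glucose in fermenting cells and takes part in glucose repression, was at -0.63, -1.10 and -0.64. The other lines had a mean of -0.62 ± 0.13 (SE, n = 20; limma adjusted p = 0.0067), so the 3 lines and the rest stood at a like distance from the reference.

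MUP1, the high-affinity methionine permease, was at -1.29 in line 2, -0.59 in line 15 and -0.76 in line 16. The lowest of the other lines was at -1.20, and their mean was -0.46 ± 0.10 (SE, n = 20; limma adjusted p = 0.0088), with 17 of 20 negative. THI7, the thiamine transporter of the plasma membrane, was at -0.51, -0.68 and -0.56, while the other lines ran from -1.76 to 1.41 with a mean of -0.20 ± 0.17 (SE, n = 20; limma adjusted p = 0.576). The last 6 negative features were genes of cytosolic ribosomal proteins and are described with that list. Just inside the threshold, with the smallest absolute value nearest to 0.5, were THI7, RPL10 and AIM33. Just outside it were RPL42A (-0.50, -0.80 and -0.90), RPS26B (-0.50, -0.80 and -0.96) and YRO2 (0.49, 0.48 and 0.51).

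Other lines carried parts of the same set. Over the 18 features, a line of the other 20 lay on the same side as the 3 lines for 7 to 17 of them, with a median of 14, and by 0.5 or more for 3 to 15. Lines 7 and 28 were nearest, with 17 of 18 on the same side and 15 of 18 by 0.5 or more. The equally narrow lines differed from each other, since line 24 had 16 on the same side and 11 by 0.5 or more, and line 49 had 12 and 3. The 18 features were chosen on the values of the 3 lines themselves, so the counts in other lines are given as a description. Whether a low spread goes with this set was not tested.

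The list with the highest share of members on one side in all 3 lines was that of the cytosolic ribosomal proteins, the structural parts of the ribosome. Of its 137 measured genes 113 (82.5%) were negative in all 3 lines and none was positive in all 3, whereas 21.9% of all features were negative in all 3. The median log2 ratio of the list was -0.33 in line 2, -0.55 in line 15 and -0.51 in line 16, beside medians of all features of -0.012, -0.007 and -0.017. By line, 129, 135 and 121 of the 137 were negative, beside 3331, 3279 and 3348 of 6334 features, and 11, 79 and 71 were at -0.5 or below. Large and small subunit genes lay alike, with medians of -0.34, -0.52 and -0.53 for the 81 large subunit genes and -0.33, -0.57 and -0.49 for the 56 small subunit genes.

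The other 20 lines spread over both sides of these values. Their medians of the same list ran from -1.26 in line 44 to 1.41 in line 10, with 11 lines negative and 9 positive. The level in the quiet lines was therefore not outside the others, and it was nearer to the reference than in the extreme lines. In the fit of the other lines, 2 of the 137 genes had a negative mean that passed and none a positive one, against 3.43% and 2.45% of all features.

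The 6 ribosomal protein genes in the set of 18 were RPL10, RPL20B, RPL24A, RPL27B, RPL34A and RPS21A. RPL27B was at -0.58, -0.86 and -0.71 in lines 2, 15 and 16, and RPS21A at -0.56, -0.98 and -0.75. RPL34A was lowest in line 16, at -0.56, -0.52 and -0.84. RPL24A was at -0.52, -0.75 and -0.57, and RPL20B at -0.51, -0.82 and -0.74. RPL10, which codes for a late-joining protein of the large subunit, hardly varied, at -0.51, -0.54 and -0.53. For none of these 6 did the mean of the other 20 lines pass the test (limma adjusted p from 0.455 to 0.949), and each ranged over both sides in those lines.

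Single ribosomal genes went further in line 16. RPS3 was at -0.12, -0.67 and -1.47, RPL25 at -0.19, -0.82 and -1.39, and RPS10A at -0.42, -0.89 and -1.27. The SD over the 137 genes was 0.185 in line 2, 0.210 in line 15 and 0.369 in line 16, so the genes were less uniform in line 16. Many of these genes have a near-identical copy that a spotted oligonucleotide may also bind, so the values of such pairs may not be separate measurements.

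**Figure D3:**
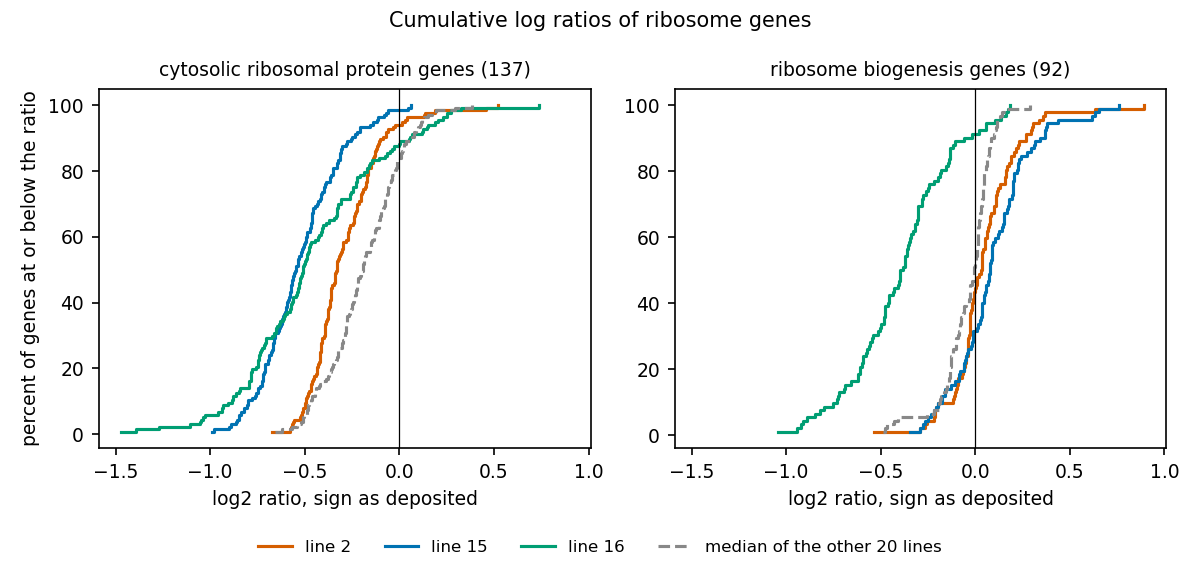
The curves give the percent of genes at or below each log2 ratio for 137 cytosolic ribosomal protein genes (left) and 92 ribosome biogenesis genes (right), in lines 2, 15 and 16 and, dashed, for the median of the other 20 lines. On the left most genes lie below 0 in all 3 lines, and on the right most do so in line 16 while lines 2 and 15 are centred near 0.

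Ribosome biogenesis genes, whose products process ribosomal RNA and assemble the subunits, did not share this pattern in all 3 lines. Their median over 92 genes was 0.03 in line 2, 0.08 in line 15 and -0.39 in line 16. In line 16 84 of the 92 were negative and 30 were at -0.5 or below, compared with 41 and 1 in line 2 and 29 and 0 in line 15. DBP2, an RNA helicase, was at 0.89, 0.63 and -0.92. The snoRNP protein genes SNU13 (-0.11, -0.17 and -0.94) and NHP2 (-0.03, -0.09 and -0.91) were near the reference in lines 2 and 15 and on the negative side in line 16. Over the other lines the list median ran from -0.65 to 0.71, with 12 of 20 lines negative. Mitochondrial ribosomal protein genes, 69 in number, had medians of 0.10, -0.06 and -0.14.

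Most histone genes lay on the negative side. Of 10 measured, 7 (70.0%, against 21.9% of all features) were negative in all 3 lines and none was positive in all 3, and the medians were -0.31, -0.48 and -0.38. HTB2, for histone H2B, was at -0.52, -0.68 and -0.38, and HHF1, for histone H4, at -0.46, -0.69 and -0.77. HHF2, the second gene for the same H4 protein, was at -0.22, -0.62 and 0.46, so the copies parted in line 16. The linker histone gene HHO1 (0.09, -0.28 and 0.07) and HTZ1, for the variant H2A.Z (0.01, -0.01 and -0.57), were the other members with mixed signs. Histone medians of the other lines ran from -1.22 to 1.42, and 14 of 20 were negative.

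Genes of the glyoxylate cycle, gluconeogenesis and acetate use, which glucose represses, lay on the positive side. Of 26 genes, 16 (61.5%) were positive in all 3 lines and 1 was negative in all 3, against 17.9% and 21.9% of all features. List medians were 0.18, 0.33 and 0.16, within the range of the other lines from -0.30 to 0.95. In the fit of the other lines, 5 members passed on the positive side and none on the negative side, against 2.45% and 3.43% of all features. FBP1 was at 1.10 in line 2, 1.61 in line 15 and 0.14 in line 16, while the other lines had a mean of 0.31 ± 0.06 (SE, n = 20; limma adjusted p = 0.0053) and none was above 1.13. SIP4, an activator of gluconeogenic genes, was at 0.60, 1.60 and 0.23, and SFC1, the mitochondrial exchanger of succinate and fumarate, was at 0.25, 1.15 and 0.06. For all of these line 15 was the highest of the 3 and line 16 the nearest to the reference.

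Glucose entry and early glycolysis gave a mixed picture. HXT2, a high-affinity hexose transporter, was at 0.34, 0.24 and 0.77, whereas the other lines ran from -2.40 to 0.57 with a mean of -0.53 ± 0.20 (SE, n = 20; limma adjusted p = 0.119). HXT3, a low-affinity transporter, was at -0.88, -0.39 and -0.28, beside a mean of -0.77 ± 0.13 in the others (SE, n = 20; limma adjusted p = 0.00086). HXT5 was at -0.18, 1.59 and -0.02, so line 15 stood alone and at the top of the range of all lines, whose next value was 1.58. The 19 hexose transporter and sensor genes had medians of 0.11, -0.09 and 0.22. The 24 genes of glycolysis and fermentation had medians of -0.07, -0.19 and 0.15, and HXK1, the other hexokinase, was at -0.31, -1.06 and -0.27. ADH1, the main enzyme that makes ethanol, was at 0.16, 0.41 and 0.34, with a mean of 0.67 ± 0.11 in the others (SE, n = 20; limma adjusted p = 0.00096).

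Amino acid synthesis genes under Gcn4, the activator of the response to amino acid shortage, formed the list with most calls in the other lines, where 28 of 64 members had a negative mean that passed and 1 a positive one, where 3.43% and 2.45% of all features did so. In lines 2, 15 and 16 the medians were -0.12, -0.21 and -0.01, and 26 of 64 (40.6%, against 21.9% of all features) were negative in all 3 while 7 were positive. ARG1, for argininosuccinate synthetase, was at -0.63, -0.74 and -0.07, and GDH1, a glutamate dehydrogenase, at -0.40, -0.63 and 0.31. CPA1, a subunit of carbamoyl phosphate synthetase, was at -0.78, -0.48 and -0.23. For ARG1 the other lines ran from -1.46 to -0.08 (mean -0.84 ± 0.10, SE, n = 20; limma adjusted p = 2.4e-05), so line 16 was the line nearest to the reference of all 23.

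Sulfur amino acid genes were negative in line 2 above all. Their median over 32 genes was -0.28, -0.16 and -0.12, and that of line 2 was below the lowest of the other 20 lines, at -0.26. Of those 20 lines 16 also had a negative median. In their fit 5 members had a negative mean that passed and 1 a positive one, against 3.43% and 2.45% of all features. In line 2 30 of 32 were negative, beside 3331 of 6334 features, and 16 (50.0%, against 21.9% of all features) were negative in all 3 lines, with MUP1 the one to reach 0.5 in each. MMP1, the S-methylmethionine permease, was at -0.64, -0.40 and -0.85. MET17, which makes homocysteine from sulfide, was at -0.72, -0.92 and 0.10. MET6, the methionine synthase, was at -0.39, -0.10 and -0.01, although the other lines had a positive mean of 0.45 ± 0.09 (SE, n = 20; limma adjusted p = 0.0061) in a range from -0.45 to 1.60.

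The seripauperin genes, a subtelomeric family of small cell-wall mannoproteins, were slightly negative throughout. Their medians were -0.17, -0.22 and -0.18 over 30 measured genes, 18 of which (60.0%, against 21.9% of all features) were negative in all 3 lines. The other lines shared this side, with medians from -0.59 to 0.16 and 14 of 20 negative. In the fit of those lines 7 members had a negative mean that passed and none a positive one, against 3.43% and 2.45% of all features. PAU20 was at -0.49, -0.51 and -0.43, and in the other lines at -0.72 to 0.31. Members of this family are so alike that a probe may read several of them.

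**Figure D4:**
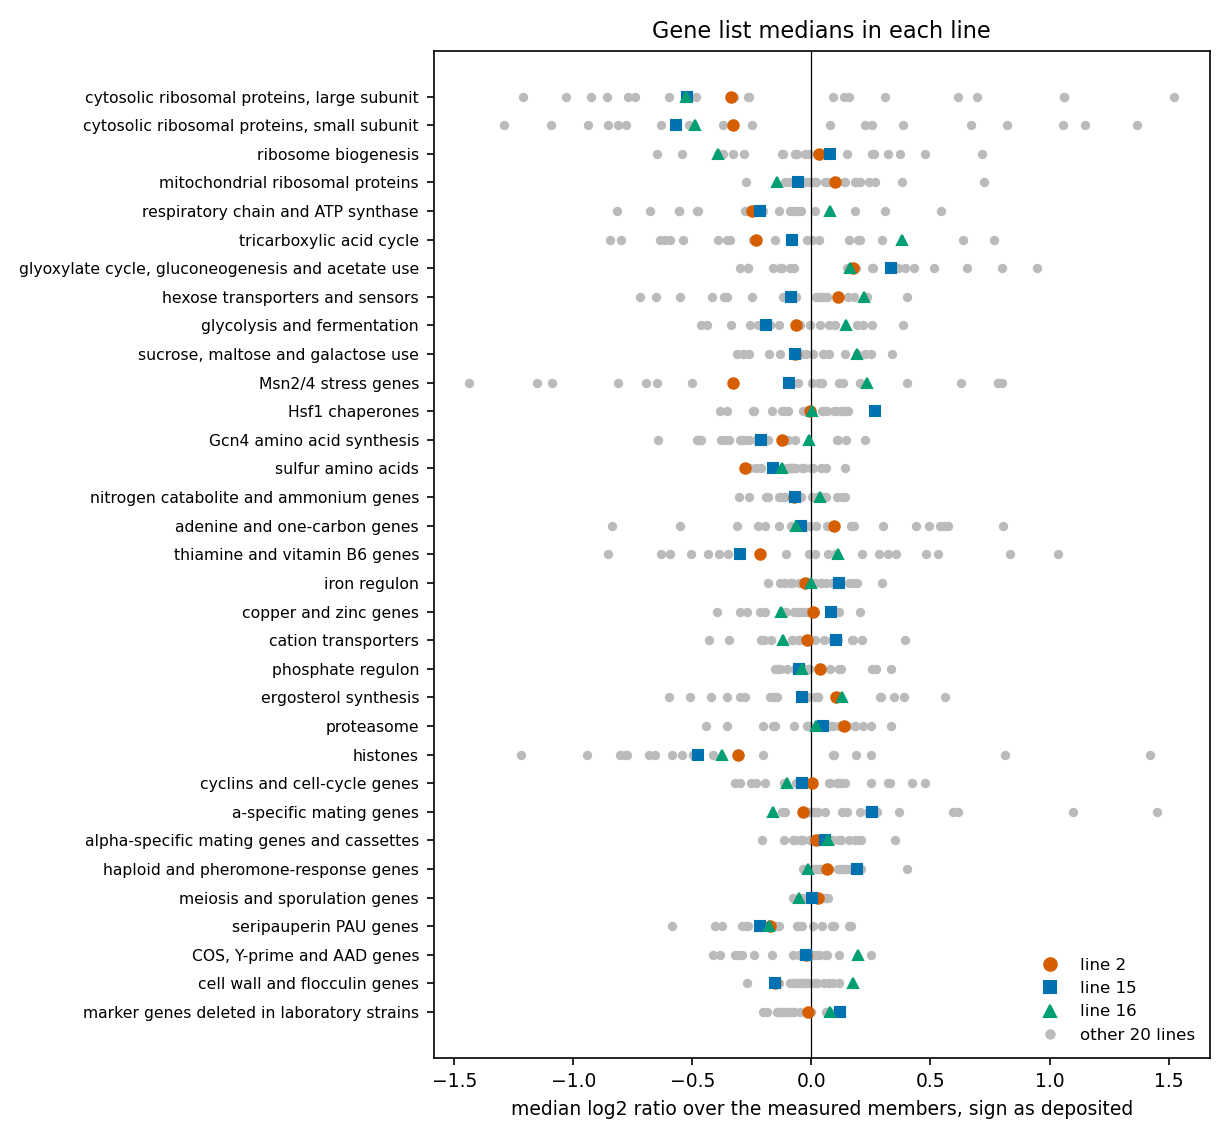
Each row is one gene list, each point the median log2 ratio of its measured members in 1 line, with lines 2, 15 and 16 as coloured symbols and the other 20 lines in grey. The ribosomal protein, histone and seripauperin lists lie on the negative side in all 3 lines, and line 16 stands on the other side of 0 from lines 2 and 15 for the thiamine and the respiratory lists.

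The 3 lines were not copies of one profile. The SD of the difference between a pair of columns, in which the reference cancels, was 0.241 for lines 2 and 15, the 2nd lowest of 253 pairs. It was 0.317 for lines 15 and 16 (16th) and 0.335 for lines 2 and 16 (29th), against a median of 0.475 and a range from 0.212 to 0.902. The numbers of features that differed by 1 or more were 29, 70 and 86 in the same order. Line 15 was nearly as close to line 7, at 0.263, and line 16 was closest to line 24, at 0.298. Small spreads of both columns make a small difference, so the ranks are a description.

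Line 16 departed from lines 2 and 15 in energy metabolism and stress genes. Over 18 genes of the tricarboxylic acid cycle, which oxidizes acetyl-CoA in mitochondria, the medians were -0.23, -0.08 and 0.38. All 3 lay within the range of the other lines, from -0.85 to 0.77, where 8 of 20 were positive. In line 2 15 of 18 were negative, and in line 16 15 of 18 were positive. CIT1, the mitochondrial citrate synthase that starts the cycle, was at -0.59, -0.56 and 0.71, and SDH2, the iron-sulfur subunit of succinate dehydrogenase, at -0.34, -0.19 and 0.66. The other lines had a negative mean for CIT1, -0.57 ± 0.16 (SE, n = 20; limma adjusted p = 0.0339), and none was above 0.60. MDH1, the mitochondrial malate dehydrogenase, was far below the list median in line 2 and stayed negative in line 16, at -1.73, -0.43 and -0.22.

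The respiratory chain and ATP synthase list of 38 genes had medians of -0.25, -0.21 and 0.08, and 18 of its members (47.4%, against 21.9% of all features) were negative in all 3 lines. Over the other lines the list median ran from -0.82 to 0.55, with 16 of 20 negative. In their fit 6 members had a negative mean that passed and none a positive one, against 3.43% and 2.45% of all features. The spread of the list in line 16 was wide (SD 0.513, against 0.269 in line 2 and 0.246 in line 15), because members parted to both sides. RIP1, the Rieske iron-sulfur protein of complex III, was at 0.00, 0.09 and 1.01. ATP14, a subunit of the ATP synthase, was at -0.39, -0.61 and -1.01. COX12, a subunit of cytochrome oxidase, was at -0.38, -0.53 and -0.84, and COX4, another subunit, at 0.42, 0.34 and 0.76. Line 16 thus held both the highest and the lowest of these 4 genes among the 3 lines.

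Of 65 genes activated by Msn2 and Msn4, the general stress regulators, 50 were negative in line 2, 42 in line 15 and 16 in line 16, with medians of -0.33, -0.09 and 0.23. The medians of the other lines ran from -1.44 in line 6 to 0.80 in line 21. Each set among those 20 lines, lines 2 and 15 ranked 8th and 9th from the lowest of 21, and line 16 ranked 16th. YGP1, a secreted cell-wall glycoprotein, was at -1.84, -1.24 and 0.13. GPH1, the glycogen phosphorylase, was at -1.16, -1.06 and 0.36, and TSL1, a subunit of trehalose synthase, at -0.38, -0.66 and 0.62. HSP26, a small heat shock protein, was positive in all 3, at 0.43, 0.98 and 0.61. The 20 genes of sucrose, maltose and galactose use had medians of -0.07, -0.07 and 0.19, with 9, 8 and 17 positive. Its members differed: PGM2, the major phosphoglucomutase, was at -0.90, -1.28 and 0.43, the maltase gene MAL12 at -0.36, -1.0 and 0.85, and SUC2, the invertase, at -0.78, -0.81 and 0.25, while MAL33 was positive in each, at 0.27, 0.42 and 0.72.

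Thiamine synthesis genes held the largest gap between line 16 and the other two. THI4 was at -1.48 in line 2, -2.15 in line 15 and 0.72 in line 16. The THI5 family makes the pyrimidine moiety, and its 4 members followed THI4. THI5 was at -0.94, -1.73 and 0.75, and THI11 at -0.88, -1.65 and 0.79. THI12 was at -1.21, -1.67 and 0.46, and THI13 at -1.02, -1.61 and 1.12. These 4 genes are near-identical and may be read by each other's probes, so they count as one observation rather than 4.

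In the other lines THI4 ran from -2.77 to 1.83 with a mean of -0.85 ± 0.22 (SE, n = 20; limma adjusted p = 0.0207), and THI13 from -1.99 to 2.01, so both sides seen among the quiet lines were also seen elsewhere. The transporter THI7 did not follow, being negative in all 3 lines. Over the 24 genes of the thiamine and vitamin B6 list the medians were -0.21, -0.30 and 0.11, with 16 and 19 members negative in lines 2 and 15 and 15 positive in line 16. The gap was widest in THI4 and the THI5 family. SNZ2, a gene of vitamin B6 synthesis, was at -0.06, -0.33 and 0.41.

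**Figure D5:**
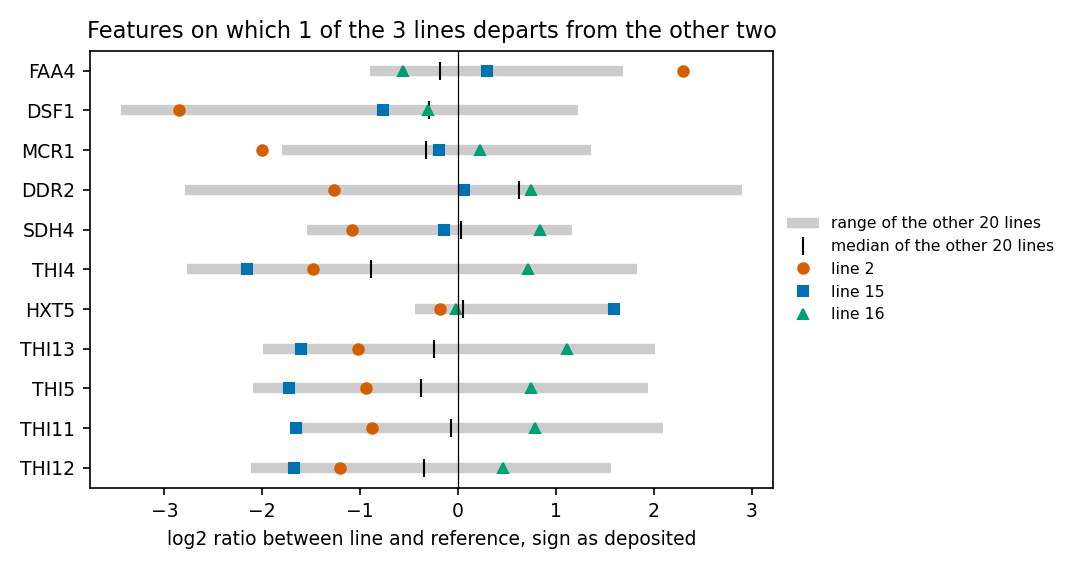
Rows are the features that lay farthest in 1 of the 3 lines from the mean of the other two (5 per line, 11 distinct), with log2 ratios of lines 2, 15 and 16, the range of the other 20 lines in grey and their median as a tick. Line 16 is positive and lines 2 and 15 are negative for the 5 thiamine synthesis genes, and FAA4 and MCR1 in line 2 and HXT5 in line 15 lie outside the grey bar.

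Line 2 stood apart by single genes. FAA4 was at 2.30, with 0.29 in line 15 and -0.56 in line 16, and the highest of the other lines was 1.68. DSF1 was at -2.85, -0.77 and -0.31, inside the range of the others. MCR1, the mitochondrial NADH-cytochrome b5 reductase, was at -2.0, -0.19 and 0.22. DDR2, a gene of the multistress response, was at -1.27, 0.06 and 0.75, and SDH4, a membrane subunit of succinate dehydrogenase, at -1.08, -0.14 and 0.84. In line 15 the 5 largest departures were THI4, THI13, THI5 and THI11 on the negative side and HXT5 on the positive side. In line 16 they were THI4 and the 4 members of the THI5 family, all positive.

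Some values lay beyond all 22 other lines by 0.5 or more. They were chosen after their values were seen and rest on 1 column each. In line 2 these were YKL202W and FAA4 above, and IRC23 (-1.14, next lowest -0.46) and CUR1 (-1.26, next lowest -0.69) below. In line 15 they were YMR245W, YPL102C and YNR064C, all above. In line 16 they were HOR7 (-1.25, next lowest -0.43) and TOH1 (0.80, next highest 0.17). Line 16 was the highest or the lowest of all 23 lines for 404 features (147 highest and 257 lowest, 6.38% of features). The count was 133 in line 2 (83 and 50, 2.10%) and 102 in line 15 (63 and 39, 1.61%). Such counts are not given for the comparison group, so whether 404 is high or low for a line was not tested.

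The values of the 3 lines were also set against the range of the other 20. One feature of 6334 (0.0158%) had all 3 values outside that range, and this count was 12 with columns scaled to a common median absolute deviation and 14 after quantile normalization. The feature was CDC7, the kinase that fires replication origins, at 0.19, 0.26 and 0.31, where the others ran from -0.46 to 0.19 with a mean of -0.01 ± 0.05 (SE, n = 20). The gap between the lowest of the 3 and the highest of the others was under 0.01. In a limma fit of the 3 lines against the other 20, no feature passed an adjusted p of 0.05 (0% of 6334), and 111 (1.75%) had an unadjusted p under 0.05. Both counts come from the values which chose the lines, so nothing is read from them.

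Distances from the reference were not all smaller than elsewhere, as the values of YJL007C, RGI1 and MUP1 above show. The sodium pump gene ENA1 was at -0.36, -0.20 and -0.38, while the other lines ran from -2.73 to 1.10 with a mean of -1.01 ± 0.25 (SE, n = 20; limma adjusted p = 0.0152). ENA2, its tandem neighbour with a near-identical sequence, was at -0.42, -0.18 and -0.64, beside a mean of -1.11 ± 0.25 (SE, n = 20; limma adjusted p = 0.0089). The metallothionein gene CUP1-1 was at -0.45, -1.26 and -0.94, with a mean of -0.84 ± 0.18 in the others (SE, n = 20; limma adjusted p = 0.0067).

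Markers of mating type had small values in lines 2 and 16. The 7 a-specific genes had medians of -0.04, 0.25 and -0.16, all 7 were negative in line 16, and its median was below the lowest of the other 20 lines, at -0.12. The same genes reached 1.45 as a median in line 10, and the 10 measured alpha-specific and cassette genes had medians of 0.02, 0.06 and 0.07. STE2, the alpha-factor receptor that marks a cells, was at 0.03, 0.96 and -0.05, and MFA2, which codes for a-factor, at -0.04, 0.72 and -0.27, while STE3, the a-factor receptor that marks alpha cells, was at -0.08, 0.01 and -0.03. In line 15, 5 of the 7 a-specific genes were positive and 2 negative, beside 3055 and 3279 of 6334 features. The 2 negative ones were ASG7 at -0.28 and BAR1 at -0.02. In the other lines STE2 reached 4.55. The part of mating type in line 15 was not tested.

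Whole chromosomes were level in the 3 lines. Over 16 chromosomes the medians in the 3 lines lay between -0.06 and 0.03, and in the other lines they ran from -0.26 (chromosome XIII in line 20) to 0.32 (chromosome IX in line 49). Without lines 20 and 49, left out after their values were seen, that range was -0.15 to 0.26. The 24 genes of the Hsf1 chaperone list had medians of -0.01, 0.27 and 0.00. That of line 15 was above the highest of the other 20 lines, at 0.15. The 8 marker genes deleted in laboratory strains had medians of -0.01, 0.12 and 0.08. Here too line 15 was above the highest of the other 20 lines, at 0.10. Some other lists were near the reference in all 3 lines. The 34 proteasome genes had medians of 0.14, 0.05 and 0.02, the 34 meiosis and sporulation genes 0.03, 0.00 and -0.05, and the 22 phosphate genes 0.03, -0.05 and -0.04. The 24 cell wall and flocculin genes had medians of -0.15, -0.16 and 0.17, and that of line 16 was above the highest of the other 20 lines, at 0.12. TIP1, a cell-wall mannoprotein, was nevertheless highest in line 2, at 0.99, 0.87 and 0.34. The 24 COS, Y-prime and AAD genes of subtelomeres had medians of -0.02, -0.02 and 0.20, with COS5 at 0.12, 0.05 and 1.00.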

How the data were processed

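Per the labels, 15 μg of total RNA per sample was reverse transcribed with SuperScript III and hybridized to 2-channel spotted-oligo arrays. The authors deposited 1 normalized log ratio per feature and line, read here as log2. The base, the numerator, the background correction, spot filters and whether a column averages the 2 biological replicates named in the design text are not stated in the sources at hand, and the table holds no signal over background, so the precision of a single ratio is unknown. All 6334 features entered every step with no filter, and none of the values was missing. Systematic names were paired with R64 symbols, 5623 exactly and 194 after a hyphen was restored, and 517 were unmatched. The members and the 33 gene lists were chosen with earlier results of these data known. The lines were chosen on these values, so values of lines 2, 15 and 16 are described without tests. For the other 20 lines, limma 3.58.1 (R 4.3.3) set each feature's mean against 0, two-sided, by lmFit with only an intercept and eBayes, with Benjamini-Hochberg adjustment across the table. These p-values judge that mean against the spread between columns, which holds line differences and measurement error together. An offset from the shared reference enters the mean and not that spread. The steps were tested on simulated data. Named genes were those on one side in all 3 lines (up to 12 per side by their smallest absolute value, plus RPL10, the 13th negative one), those outside the range of the other lines, up to 4 members per list by the mean of the 3 lines and up to 4 by the difference from the others, and the 5 per line farthest from the other 2. The extremes of a column, the features at the edge of the threshold, SDH2 and SNZ2 were named after their values were seen. Alternatives were scaling, quantile normalization, thresholds, array weights, matched features and leaving out lines. Python 3.11.15, numpy 2.4.6, pandas 2.3.3 and matplotlib 3.10.9 were used.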

Additional observations from a re-analysis of the deposited data

How the results depend on the processing

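The count of features on one side of the reference in all 3 lines, 18 as reported, depended on scale. It was 96 with columns scaled to a common median absolute deviation, 108 after quantile normalization, 153 at a threshold of 0.3 and 1 at a threshold of 1. Leaving out 1 of the 3 lines gave 30 to 89 (88 without line 2, 30 without line 15 and 89 without line 16). The count outside the range of the other lines, 1 as reported, was 12 with scaled columns, 14 after quantile normalization, 2 with lines 1 and 45 averaged, 0 with a required gap of 0.2, 2 without lines 24 and 49 (chosen after seeing the data) and 10 to 12 with 1 of the 3 lines left out (12 without line 2, 10 without line 15 and 11 without line 16). Fewer lines and wider columns make both criteria easier to meet. In the limma fit of the other 20 lines, 838 features passed with array weights in place of 372, 297 with lines 1 and 45 averaged, and 252 to 468 under the other alternatives. Lines 1 and 45 had the highest Pearson r of the 253 pairs, at 0.90, and the main fit took them as separate lines. The limma fit of the 3 lines against the other 20 called 0 features under every alternative run, with 61 to 568 at an unadjusted p under 0.05. These counts come from the values that chose the lines, so nothing is read from them. By median absolute deviation in place of SD, the ranks of lines 2, 15 and 16 went from 4, 3 and 5 to 1, 2 and 6. Scaled columns moved the mean list levels of the 3 lines to -0.64 for large and -0.64 for small subunit ribosomal proteins, -0.27 for sulfur genes, -0.54 for histones and -0.26 for seripauperin genes, all on the same side as reported, and scaling a column leaves the sign of each of its values as it was. The labels give no pairing between the 3 lines and the other 20, so no paired analysis was possible. Each value of a line is 1 column, and the table holds no signal over background, so the precision of a single ratio is unknown.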
